A study of Mus musculus with 9 samples.

Results

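The 10 genes described here are BCL2 family members that decide between survival and mitochondrial death of a cell. They were taken by their GENCODE symbols from the table of gene counts, which holds 20189 genes, and all 10 were found: the BH3-only genes Bbc3, Pmaip1, Bcl2l11, Bid and Bad, the effectors Bax and Bak1, and the survival genes Mcl1, Bcl2 and Bcl2l1. The samples were wild-type E14 cells, a line of mouse embryonic stem (ES) cells, with no transgene or drug named in the labels. There were 3 samples starved of threonine (Thr) for 3 h, 3 starved of cysteine (Cys) for 3 h and 3 unstarved samples kept with all amino acids. All were grown on gelatin with serum and LIF, the cytokine that keeps ES cells pluripotent, and they represent a single cell line. The treatment text in the labels describes a medium for Arg or Leu removal, so the exact Thr medium is not given there. The study's methods describe PBS washes and medium with dialyzed serum for starvation. They do not say whether the unstarved RNA samples of this experiment had the same washes and medium. An effect of a change of medium was not tested. The study followed the fate of ES cells deprived of single amino acids, and the comparisons ask how far the early transcript response to Thr loss and to Cys loss is shared.

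BCL2 family proteins meet at the outer mitochondrial membrane. BAX and BAK1 form pores that release cytochrome c, the survival proteins MCL1, BCL2 and BCL-XL (from Bcl2l1) hold them in check, and BH3-only proteins such as PUMA (Bbc3), NOXA (Pmaip1), BIM (Bcl2l11), BID and BAD bind the survival proteins or activate the effectors directly. Much of this control is by protein binding, cleavage, phosphorylation and turnover, which transcript counts do not show. ES cells are known to stand close to the threshold of mitochondrial apoptosis.

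Poly(A) RNA was sequenced, and the deposited values were read counts per gene on the GRCm38 mouse genome. Total counts per library ranged from 48763102 to 74962733. A chi-square per gene between replicate libraries was 1.98 to 2.13, and between libraries of different groups 2.92 to 7.15. Whether both ends of a fragment were counted was not settled, so an excess over sampling noise between replicates is not shown. No library had the same total as another. The 10 ES cell markers examined, among them Pou5f1, Sox2 and Nanog, were all at 5 CPM (counts scaled to the TMM-adjusted library size) or more in every group, and their summed level was 4593 to 4642 CPM in unstarved, 4321 to 4379 CPM in Cys-starved and 4820 to 4906 CPM in Thr-starved libraries. Within this sum the markers differed in opposite directions between Thr-starved and unstarved cells, with mean levels of 95.1 against 307 CPM for Utf1 and 211 against 283 CPM for Nanog, but 267 against 148 CPM for Klf4 and 588 against 392 CPM for Lin28a. Fibroblast markers (5 of 8 in the table) summed to between 10.1 and 16.8 CPM, endoderm markers (5 of 6) to between 5.51 and 9.26 CPM and mesoderm markers (4 of 5) to between 3.99 and 8.14 CPM. Neural markers (4 of 5 in the table, all above 5 CPM) summed to 209.7 to 214.9 CPM in unstarved, 256 to 258.9 CPM in Cys-starved and 136.9 to 138 CPM in Thr-starved libraries, and their part in the results was not tested. Tubb3, the highest of them, had a mean of 147 CPM in unstarved, 180 CPM in Cys-starved and 60.5 CPM in Thr-starved libraries. Sox1, Pax6 and Nes did not fall with it under Thr starvation. Their means were 15.4, 8.24 and 53.3 CPM in Thr-starved against 8.37, 7.53 and 49.5 CPM in unstarved libraries, so the lower neural sum followed Tubb3. In such bulk samples fewer cells of a type and less RNA per cell cannot be told apart. The labels do not say whether the 3 samples of a group were separate cultures, so p-values measure the spread between these samples, which may be technical.

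The sequences upstream of Bbc3, Mcl1, Bcl2l11 and Bid are shown as examples of members that rose and members that fell under Thr starvation. Pmaip1, with the largest rise of the members under Thr starvation by TMM-scaled counts, had no window. Each is the 250 bases before a RefSeq transcript start on GRCm38.p6, printed 5′ to 3′ on the gene's strand, with every GGGCGG (the SP1 box) on either strand in capitals. For Bbc3, with 3 windows, the window nearest to the GENCODE start is given, at a distance of 1190 bases. The regions are chr7:16309333-16309582 on the plus strand for Bbc3, chr3:95658471-95658720 on the plus strand for Mcl1, chr2:128125788-128126037 on the plus strand for Bcl2l11 and chr6:120916825-120917074 on the minus strand for Bid.
Bbc3: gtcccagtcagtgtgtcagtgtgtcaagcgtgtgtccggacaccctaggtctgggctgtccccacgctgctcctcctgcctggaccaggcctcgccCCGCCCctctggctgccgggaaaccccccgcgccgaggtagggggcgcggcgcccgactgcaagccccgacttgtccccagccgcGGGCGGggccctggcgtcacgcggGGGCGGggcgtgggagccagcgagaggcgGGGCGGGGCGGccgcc
Mcl1: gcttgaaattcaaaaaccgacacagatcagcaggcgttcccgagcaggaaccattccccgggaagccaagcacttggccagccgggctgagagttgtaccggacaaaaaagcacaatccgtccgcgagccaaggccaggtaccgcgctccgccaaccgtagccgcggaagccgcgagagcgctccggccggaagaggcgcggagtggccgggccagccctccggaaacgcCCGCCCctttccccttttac
Bcl2l11: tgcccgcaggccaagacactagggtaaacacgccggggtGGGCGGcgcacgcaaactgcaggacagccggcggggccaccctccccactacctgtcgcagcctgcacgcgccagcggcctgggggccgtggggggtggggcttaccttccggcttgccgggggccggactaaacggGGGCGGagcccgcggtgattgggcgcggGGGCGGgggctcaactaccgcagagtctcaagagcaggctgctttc
Bid: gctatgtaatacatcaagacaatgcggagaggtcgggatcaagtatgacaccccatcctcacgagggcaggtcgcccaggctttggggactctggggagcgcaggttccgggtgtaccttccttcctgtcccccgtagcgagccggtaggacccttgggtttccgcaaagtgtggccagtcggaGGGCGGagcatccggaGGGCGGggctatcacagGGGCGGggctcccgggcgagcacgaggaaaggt
Bbc3 held 5 boxes at a GC content of 76.4%, Bcl2l11 held 3 at 72%, Bid held 3 at 63.6% and Mcl1 held 1 at 64.4%. Genes that rose and genes that fell under Thr starvation both had GC-rich upstream sequence with this box. Windows of 250 bases before to 50 after a start were found for 9 of the 10 members, with 15 windows in all. GGGCGG was in 10 of the 15 windows, from 7 members (Bad, Bax, Bbc3, Bcl2, Bcl2l11, Bid and Mcl1), and in 35.7% of all 32851 windows. TGATGNAA, the composite element bound by ATF4 with C/EBP factors, was in none of the 15 and in 3.97% of all windows. TGANTCA, bound by AP-1, was in none of the 15 and in 7.81% of all windows, and TATAAA in none of the 15 and in 13.6% of all windows. The p53 decamer, searched by its consensus, was in 1 window of Bax and in 8.36% of all windows. All motifs were read on both strands, and no match says only that these letters are absent from these windows.

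In unstarved ES cells the transcripts of the family covered a wide range of levels. Per kilobase of exon, Mcl1 had the highest level at 89.9 ± 2.29 CPM per kilobase (SD, n = 3), followed by Bax at 77.2 ± 2.17, Bid at 24.8 ± 0.114, Bak1 at 19.2 ± 0.359, Bbc3 at 12.2 ± 0.383 and Bcl2l1 at 11.3 ± 0.565 CPM per kilobase. Bcl2l11 at 4.94 ± 0.123, Bad at 3.16 ± 0.293, Pmaip1 at 2.53 ± 0.155 and Bcl2 at 0.112 ± 0.00415 CPM per kilobase came last. The libraries of each gene lay above those of the next gene in this order without overlap, although Bbc3 and Bcl2l1 were close. The order can depend on the length used as divisor, here all exon bases of a gene. For Bax the longest transcript had 1100 bases against 1576 exon bases, for Bcl2l1 2568 against 4586, and for Mcl1 3418 in both. An order by the longest transcript was not computed. Cys-starved cells had the same order, again without overlap between neighbours. In Thr-starved cells Mcl1 at 156 ± 2.7 and Bax at 73.4 ± 0.784 CPM per kilobase still led, but Bbc3 had moved up to the third place at 24.4 ± 1.04 CPM per kilobase. There Bak1 at 17.9 ± 0.215 and Bid at 17.7 ± 0.706 CPM per kilobase overlapped, Pmaip1 at 5.59 ± 0.257 CPM per kilobase stood above Bad, and Bcl2l11 at 2.29 ± 0.0575 CPM per kilobase stood below it.

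**Figure D1:**
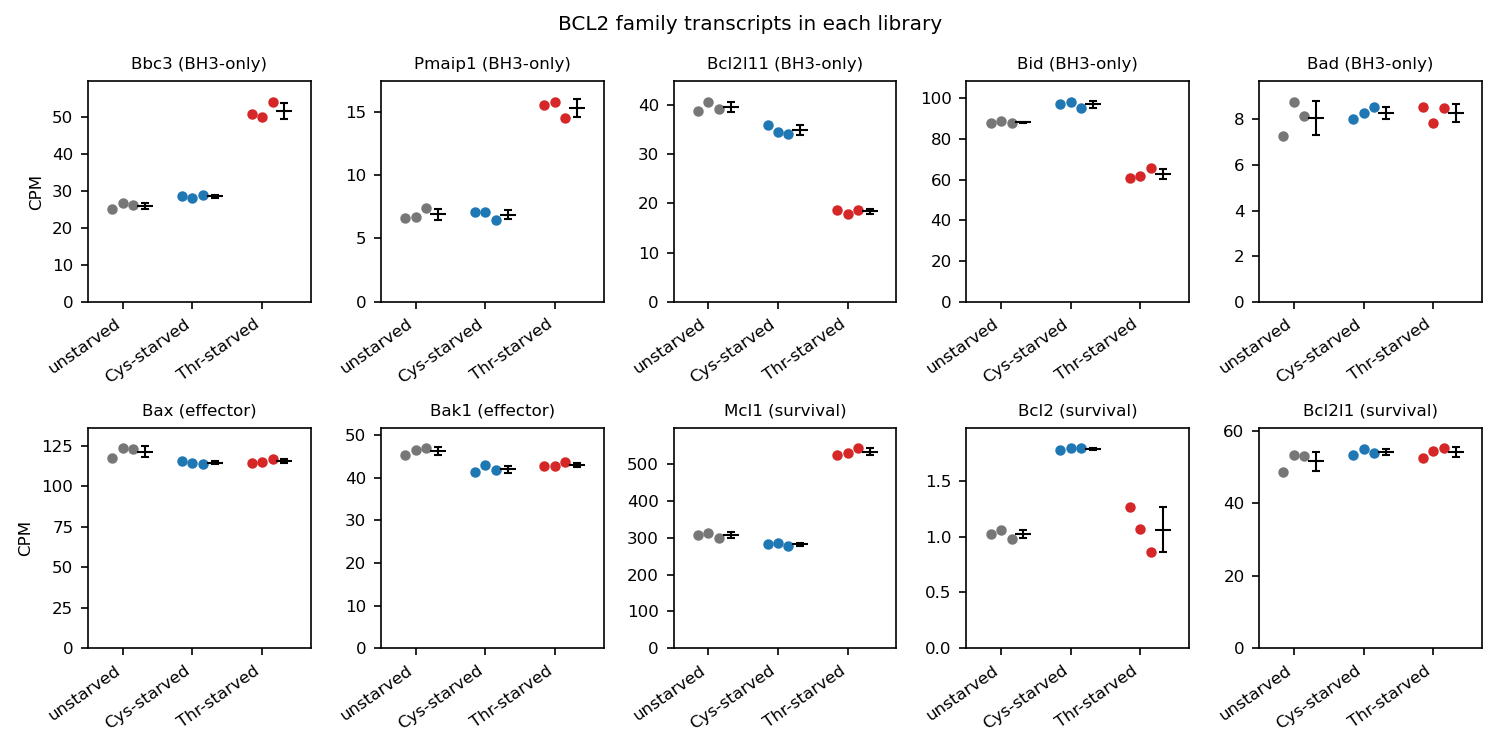
Level of each of the 10 BCL2 family transcripts in the 9 libraries, in CPM on axes that start at 0, with 1 point per library and a bar for the mean and SD of the 3 libraries of a group. Bbc3, Pmaip1 and Mcl1 are high and Bcl2l11 and Bid low in the Thr-starved libraries, and Bcl2 is high in the Cys-starved libraries. Bad and Bcl2l1 differ little between groups.

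Counts were compared with edgeR's quasi-likelihood test with Benjamini-Hochberg adjustment over the 20143 genes with at least 1 count, and a gene was called at an adjusted p of 0.05 or less. With Thr starvation 7 of the 10 members were called, 3 higher and 4 lower, where 63% of all genes tested were called (31.1% higher and 31.9% lower). The libraries of the Thr-starved and unstarved groups did not overlap for 7 members, against 66.5% of all genes. With Cys starvation 7 of the 10 were called, 3 higher and 4 lower, where 36.3% of all genes were called (17.5% higher and 18.8% lower), and 8 members did not overlap against 46.4% of all genes. Directly between Thr and Cys starvation 6 members were called, 3 in each direction, where 62% of all genes were called (30.4% higher and 31.6% lower), and 6 did not overlap against 65.8% of all genes. With trends in GC content and transcript length removed, the members called were 7 higher and 2 lower under Thr starvation and 7 higher and 3 lower between the starvations. In the same setting 6487 genes were higher and 6156 lower under Thr starvation, and 6382 were higher and 5948 lower between the starvations, of 20143 tested. With the deposited size factors, 2 were higher and 4 lower under Cys starvation, where all genes called split into 2787 higher and 4786 lower in place of 3523 higher and 3790 lower. The shares called under Thr starvation and in the direct comparison were near those of all genes. The genes tested include those with few reads, while all members but Bcl2 had 374 reads or more in every library. Whether this difference in reads bears on the share called under Cys starvation was not tested. The median absolute log2 fold change of the members was 0.30 under Thr starvation (0.39 over all genes), 0.13 under Cys starvation (0.17 over all genes) and 0.70 between the starvations (0.36 over all genes). Both starvations were compared with the same 3 unstarved libraries.

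**Figure D2:**
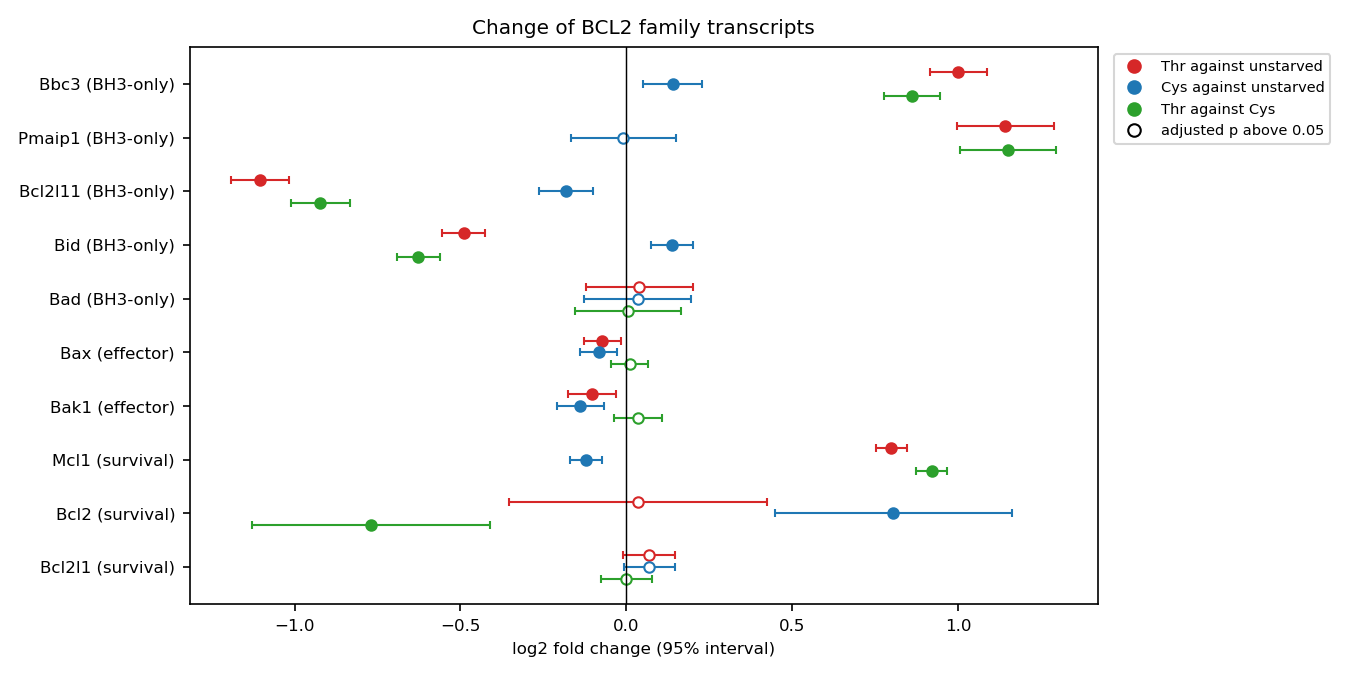
log2 fold change with its 95% interval for each member in the 3 comparisons, filled where the adjusted p is 0.05 or less. With Thr starvation, Bbc3, Pmaip1 and Mcl1 lie between 0.80 and 1.14 and Bcl2l11 at -1.10, while under Cys starvation all members but Bcl2 lie within 0.2 of 0. The small values of Bax and Bak1 under Thr starvation change sign when trends with GC content and length are removed.

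Among the BH3-only genes, Bbc3 and Pmaip1 rose under Thr starvation, Bcl2l11 and Bid fell, and Bad was not called. Bbc3 encodes PUMA, which binds all survival members (ENSMUSG00000002083, chr7:16308393-16318205, plus strand). It was at 25, 26.6 and 26.1 CPM in the unstarved libraries, 28.6, 28 and 29 CPM in the Cys-starved libraries and 50.9, 50 and 54.2 CPM in the Thr-starved libraries. The Thr-starved libraries stood far above all others, and the Cys-starved libraries stood just above the unstarved ones without overlap. Its log2 fold change was 1.00 ± 0.041 under Thr starvation (SE, adjusted p = 1.48e-15), under Cys starvation 0.14 ± 0.043 (adjusted p = 0.0127), and between Thr and Cys starvation 0.86 ± 0.041 (adjusted p = 2.06e-14). The small rise under Cys starvation was lost without unstarved replicate 1 (log2 fold change 0.11, adjusted p = 0.0805) and with the deposited size factors (0.10, adjusted p = 0.0827), and its adjusted p ranged from 0.00618 to 0.0827 over all alternatives.

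Pmaip1 encodes NOXA, a selective partner of MCL1 (ENSMUSG00000024521, chromosome 18). It was at 6.65, 6.68 and 7.4 CPM in unstarved, 7.05, 7.08 and 6.44 CPM in Cys-starved and 15.5, 15.8 and 14.5 CPM in Thr-starved libraries. The Thr-starved libraries were again well apart, and the Cys-starved libraries lay within the range of the unstarved ones apart from replicate 3, the lowest of the 6. Thr starvation raised it by 1.14 ± 0.071 on the log2 scale (adjusted p = 2e-12), and the direct difference of Thr from Cys starvation was 1.15 ± 0.07 (adjusted p = 1.83e-12). With Cys starvation it was -0.01, with a 95% interval from -0.17 to 0.15 (adjusted p = 0.948).

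Bcl2l11 encodes BIM, which binds all survival proteins and also activates BAX directly (ENSMUSG00000027381, chr2:128126038-128162547, plus strand). It was at 38.9, 40.8 and 39.3 CPM in unstarved, 36, 34.5 and 34.2 CPM in Cys-starved and 18.6, 17.9 and 18.7 CPM in Thr-starved libraries. The 3 groups did not overlap, with the Thr-starved libraries lowest. It fell by 1.10 ± 0.042 on the log2 scale under Thr starvation (adjusted p = 3.85e-16), by 0.18 ± 0.039 under Cys starvation (adjusted p = 0.000735) and stood at -0.92 ± 0.042 in Thr against Cys starvation (adjusted p = 1.27e-14). This was the largest decrease among the members in each of the 3 comparisons. Bbc3 and Bcl2l11 therefore moved in opposite directions, and the ratio of their levels per kilobase was 2.47 ± 0.0379 in unstarved, 3.09 ± 0.103 in Cys-starved and 10.6 ± 0.303 in Thr-starved libraries.

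Bid encodes a BH3-only protein that caspase-8 cleaves, linking death receptors to mitochondria (ENSMUSG00000004446, chr6:120891930-120916853, minus strand). It was at 88.1, 88.6 and 87.8 CPM in unstarved, 97.4, 98.4 and 95 CPM in Cys-starved and 60.7, 61.7 and 65.5 CPM in Thr-starved libraries. The groups did not overlap, and the starvations stood on opposite sides of the unstarved cells. Bid changed on the log2 scale by -0.49 ± 0.031 under Thr starvation (adjusted p = 3.1e-12), 0.14 ± 0.03 under Cys starvation (adjusted p = 0.000883) and -0.63 ± 0.031 between them (adjusted p = 4.33e-14). Bid shares 628 of its 3550 exon bases with Bcl2l13 on the opposite strand, and Bcl2l13 rose under Thr starvation while Bid fell.

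Bad, whose protein is held inactive by survival kinases (ENSMUSG00000024959, chr19:6941861-6951899, plus strand), was at 7.29, 8.79 and 8.16 CPM in unstarved, 8, 8.28 and 8.54 CPM in Cys-starved and 8.53, 7.84 and 8.49 CPM in Thr-starved libraries. All 3 groups overlapped. Its log2 fold change was 0.04 under Thr starvation (95% interval -0.12 to 0.20, adjusted p = 0.684), 0.03 under Cys starvation (-0.13 to 0.19, adjusted p = 0.781) and 0.01 between them (-0.16 to 0.17, adjusted p = 0.958). Bad shares 524 of its 2558 exon bases with Gpr137 on the opposite strand.

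Bax and Bak1, the pore-forming effectors, were called slightly lower in both starvations, and under Thr starvation their direction turned when trends with GC content and transcript length were removed. Bax (ENSMUSG00000003873, chr7:45461697-45466898, minus strand) was at 117.7, 123.8 and 123.3 CPM in unstarved, 116, 114.3 and 114 CPM in Cys-starved and 114.7, 115.1 and 117 CPM in Thr-starved libraries. Both starved groups lay below the unstarved libraries without overlap, though unstarved replicate 1 was close to them, and they overlapped with each other. It changed by -0.07 ± 0.027 on the log2 scale under Thr starvation (adjusted p = 0.0228; 0.32 with those trends removed), -0.08 ± 0.027 under Cys starvation (adjusted p = 0.0172) and 0.01 between them (95% interval -0.04 to 0.07, adjusted p = 0.748). The Thr call was lost without unstarved replicate 2 or 3 or Thr-starved replicate 1 or 2 (adjusted p from 0.059 to 0.134), and the Cys call without unstarved replicate 2 or 3 or Cys-starved replicate 2 or 3 (adjusted p from 0.0512 to 0.0771). Bax shares 192 of its 1576 exon bases with Gm45808 on the same strand.

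Bak1 (ENSMUSG00000057789, chr17:27019810-27029009, minus strand) was at 45.2, 46.5 and 46.9 CPM in unstarved, 41.3, 42.9 and 41.7 CPM in Cys-starved and 42.8, 42.6 and 43.6 CPM in Thr-starved libraries. As for Bax, both starved groups lay below the unstarved one and overlapped with each other. It changed by -0.10 ± 0.035 on the log2 scale under Thr starvation (adjusted p = 0.012; 0.12 with the GC and length trends removed), -0.14 ± 0.034 under Cys starvation (adjusted p = 0.00253) and 0.04 between them (95% interval -0.04 to 0.11, adjusted p = 0.396). Up to 437 of its 2407 exon bases are shared with Ggnbp1 on the opposite strand.

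Of the survival members, with TMM scaling only Mcl1 was called higher under Thr starvation and only Bcl2 under Cys starvation. Mcl1 encodes a short-lived protein whose level follows its synthesis closely (ENSMUSG00000038612, chr3:95658788-95663176, plus strand). It was at 308, 315 and 299 CPM in unstarved, 283, 285 and 278 CPM in Cys-starved and 527, 532 and 545 CPM in Thr-starved libraries. The Thr-starved libraries were far above all others, and the Cys-starved libraries were all below the unstarved ones. Mcl1 had a log2 fold change of 0.80 ± 0.023 under Thr starvation (adjusted p = 2.53e-18), -0.12 ± 0.023 under Cys starvation (adjusted p = 0.000198) and 0.92 ± 0.023 between them (adjusted p = 3.18e-19). Mcl1, whose protein is bound by NOXA and by PUMA, thus rose in the same libraries as Pmaip1 and Bbc3. The summed level of Bbc3 and Pmaip1 per kilobase over that of Mcl1 was 0.164 ± 0.00676 in unstarved, 0.193 ± 0.00388 in Cys-starved and 0.192 ± 0.00254 in Thr-starved libraries, and the starved groups overlapped in this ratio.

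Bcl2, the founding survival gene of the family (ENSMUSG00000057329, chr1:106538178-106714274, minus strand), had the fewest reads of the members, with 62, 64 and 53 reads in unstarved, 112, 116 and 107 reads in Cys-starved and 62, 51 and 63 reads in Thr-starved libraries. In CPM this was 1.03, 1.06 and 0.983 in unstarved, 1.78, 1.79 and 1.79 in Cys-starved and 1.27, 1.07 and 0.859 in Thr-starved libraries. The Cys-starved libraries were above all others, and the Thr-starved and unstarved libraries overlapped. The log2 fold change was 0.80 ± 0.17 under Cys starvation (adjusted p = 0.000695), 0.04 under Thr starvation (95% interval -0.35 to 0.42, adjusted p = 0.883) and -0.77 ± 0.17 between Thr and Cys starvation (adjusted p = 0.000508). At this depth the interval under Thr starvation is wide. Bcl2 shares 558 of its 9157 exon bases with the antisense gene D630008O14Rik.

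Bcl2l1 encodes BCL-XL (ENSMUSG00000007659, chr2:152780668-152831728, minus strand). It was at 48.7, 53.3 and 53 CPM in unstarved, 53.3, 55.1 and 54 CPM in Cys-starved and 52.6, 54.3 and 55.3 CPM in Thr-starved libraries. Unstarved replicate 1 was the lowest, and the other values lay close together. The Cys-starved libraries did not overlap with the unstarved ones, by a narrow margin. On the log2 scale the difference was 0.07 under Thr starvation (95% interval -0.01 to 0.15, adjusted p = 0.116) and 0.07 under Cys starvation (95% interval -0.01 to 0.15, adjusted p = 0.163). Between the starvations it was 0.00 (95% interval -0.08 to 0.08, adjusted p = 0.997).

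As a share of the summed CPM per kilobase of the 10 members in a library, the make-up of the family differed mainly in the Thr-starved cells. Mcl1 made up 36.6% ± 0.815 in unstarved, 35.1% ± 0.167 in Cys-starved and 50% ± 0.11 in Thr-starved libraries. The 3 survival genes together came to 41.3% ± 0.673, 40.2% ± 0.198 and 53.8% ± 0.156 in the same order, the effectors to 39.3% ± 0.591, 38.3% ± 0.161 and 29.2% ± 0.19, and the BH3-only genes to 19.4% ± 0.0884, 21.6% ± 0.0389 and 17% ± 0.232. The ratio of the 3 survival to the 5 BH3-only members was therefore lowest in Cys-starved cells at 1.86 ± 0.0125. It was 2.12 ± 0.0437 in unstarved cells and highest in Thr-starved cells at 3.17 ± 0.0494. The BH3-only genes Hrk and Bmf and the survival gene Bcl2l2, described below, are not in these sums. These shares describe the libraries, were not tested and were computed without removing trends with GC content. They also depend on the exon length by which each gene was divided.

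The summed level of the 5 BH3-only genes hid opposite movements of its members. It was 47.7 ± 0.872 CPM per kilobase in unstarved, 50.8 ± 0.397 in Cys-starved and 53.1 ± 1.58 in Thr-starved libraries. Within it Bbc3 had 25.6% ± 0.338 in unstarved, 26.4% ± 0.637 in Cys-starved and 45.8% ± 0.606 in Thr-starved libraries, while Bid had 52.1% ± 0.867, 53.7% ± 0.589 and 33.2% ± 0.499. Among these 5 genes the leading transcript per kilobase of exon was thus Bid in unstarved and Cys-starved cells and Bbc3 in Thr-starved cells. Bax over Bcl2, a ratio often read in apoptosis studies, was 692 ± 32.9 in unstarved, 373 ± 5.51 in Cys-starved and 648 ± 134 in Thr-starved libraries, and it followed the few reads of Bcl2.

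**Figure D3:**
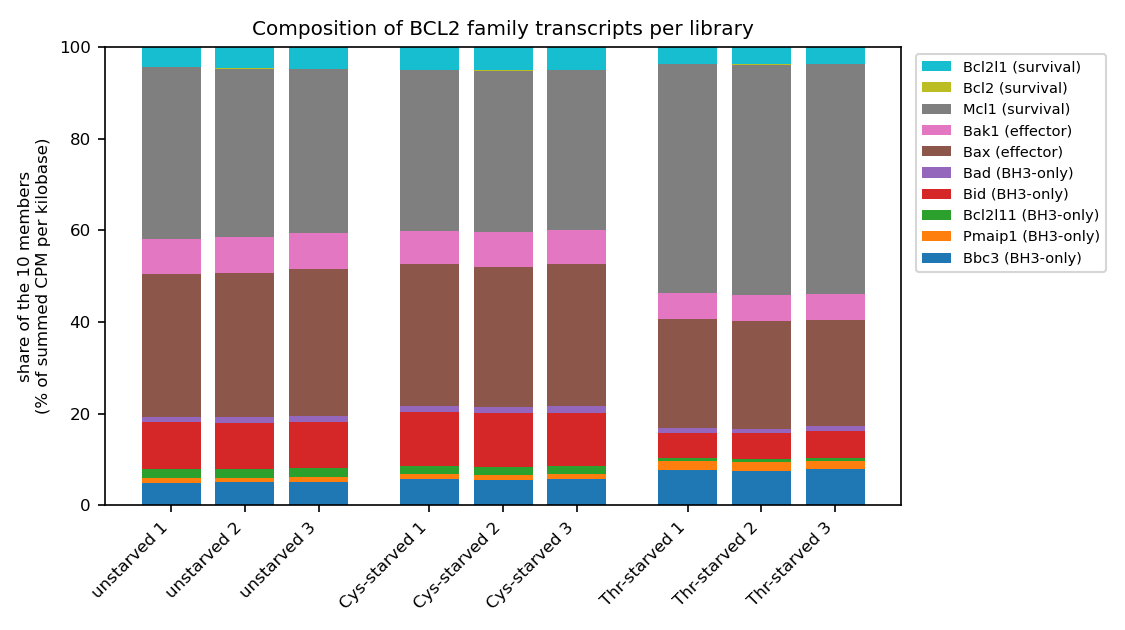
Share of each member in the summed CPM per kilobase of the 10 members, in % for each of the 9 libraries, stacked to 100%. Mcl1 takes 35.1% on average in Cys-starved and 50% in Thr-starved libraries, and the share of the effectors is 29.2% in Thr-starved against 39.3% in unstarved libraries.

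The libraries differed in how counts followed the GC content and length of transcripts, and several members lie at the GC-rich end. The longest transcript of Bbc3 had 65.2% GC and that of Bax 63.5%, against a median of 49.6% over all genes, while Pmaip1 was lowest of the members at 42.1%. The smooth trend with GC content and length differed between Thr-starved and unstarved libraries by -0.396 on the log2 scale at Bax, by -0.362 at Bbc3 and by 0.197 at Pmaip1. With these trends removed, the log2 fold change under Thr starvation was 1.36 for Bbc3, 0.94 for Pmaip1, 0.83 for Mcl1, -1.09 for Bcl2l11 and -0.45 for Bid, so these 5 members kept their direction. Bax turned from -0.07 to 0.32 (adjusted p = 2.31e-11) and Bak1 from -0.10 to 0.12 (adjusted p = 0.00294), and Bad at 0.25 (adjusted p = 0.00701) and Bcl2l1 at 0.26 (adjusted p = 2.98e-07) were now called higher. Over all alternatives the adjusted p ranged from 2.31e-11 to 0.134 for Bax, from 0.00294 to 0.0466 for Bak1, from 0.00701 to 0.869 for Bad and from 2.98e-07 to 0.491 for Bcl2l1. The direction of the effectors under Thr starvation therefore depended on this step. With Cys starvation no member changed sign, and Bax at -0.02 was no longer called (adjusted p = 0.511, range over alternatives 0.000708 to 0.511). Between the starvations all 10 members were called, 7 higher and 3 lower with Thr, where 12330 of the 20143 genes were called.

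**Figure D4:**
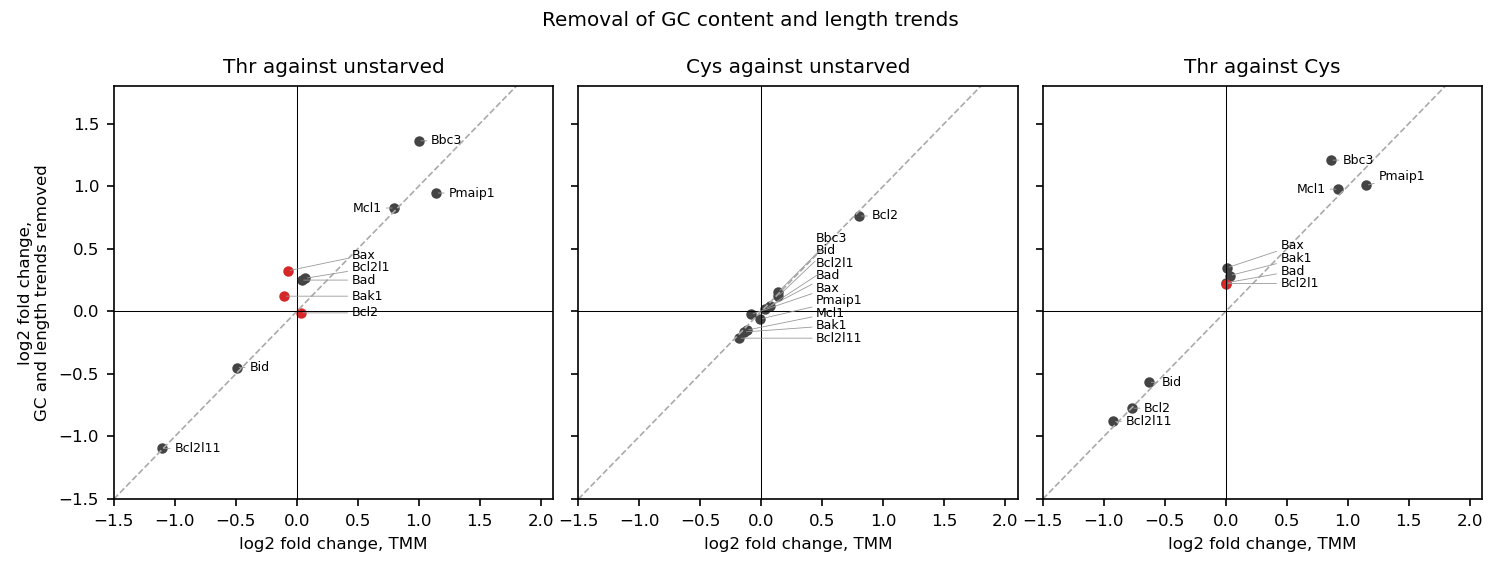
log2 fold change of each member with TMM scaling (horizontal axis) and with the GC content and length trends of each library removed (vertical axis), in the 3 comparisons, with the line of equal values dashed and sign changes in red. With Thr starvation Bax, Bak1 and Bcl2 change sign, as does Bcl2l1 between the starvations, and Bbc3 moves from 1.00 to 1.36, while the values under Cys starvation stay near the dashed line.

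Of 18 other genes listed as BCL2 family, BH3 or BCL2-related genes, 14 were in the table. Of these, 5 were higher and 5 lower under Thr starvation, and 4 higher and 4 lower under Cys starvation. In Thr against Cys starvation 4 were higher and 8 lower. These came to 71.4%, 57.1% and 85.7% of the genes in the table, against 63%, 36.3% and 62% of all genes. With the GC and length trends removed, 3 were higher and 6 lower in Thr against Cys starvation. Their median log2 fold change was -0.13 with Thr (-0.02 over all genes, and -0.02 for the list with those trends removed) and 0.12 under Cys starvation (0.01 over all genes). Hrk, a BH3-only gene best known from neurons, was at 5.62 ± 0.344 CPM in unstarved, 21.5 ± 0.439 CPM in Cys-starved and 17.1 ± 0.518 CPM in Thr-starved libraries (SD, n = 3 each). It rose by 1.94 under Cys starvation (log2, adjusted p = 1.69e-16) and by 1.60 under Thr starvation (adjusted p = 5.25e-16), more than any of the 10 members. Bmf, a BH3-only gene whose protein is sequestered on the cytoskeleton, was at 9.77 ± 0.374 CPM in unstarved and 3.44 ± 0.558 CPM in Thr-starved libraries and fell by 1.49 on the log2 scale (adjusted p = 9.62e-12). With Cys starvation Bmf was at 10.3 ± 0.999 CPM with a log2 fold change of 0.08 (95% interval -0.10 to 0.26, adjusted p = 0.511).

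The mitophagy receptor gene Bnip3 fell in both starvations, by 1.15 on the log2 scale under Thr (adjusted p = 1.63e-11) and by 0.70 with Cys (adjusted p = 1.62e-07). Bok, an effector relative of Bax, fell by 0.65 under Thr starvation (adjusted p = 5.77e-07; -0.30 with the GC and length trends removed, adjusted p = 0.00433) and by 0.26 under Cys starvation (adjusted p = 0.0145). The latter call was lost without unstarved replicate 1 and without Cys-starved replicate 2 or 3. The survival gene Bcl2l2 rose by 0.29 under Cys starvation (adjusted p = 0.00262). With Thr starvation its log2 fold change was -0.24 (adjusted p = 0.00913), a call lost with the GC and length trends removed (-0.07, adjusted p = 0.474) and without Thr-starved replicate 3. Bcl2l13, the opposite-strand neighbour of Bid, rose by 0.41 under Thr starvation (adjusted p = 4.41e-11). In the direct comparison Bnip2 was higher by 0.26 with Thr than under Cys starvation (adjusted p = 6.67e-06, and 0.15 with the GC and length trends removed). Bcl2l13 was higher by 0.25 (adjusted p = 1.46e-07).

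Downstream of the mitochondria, 8 of the 19 apoptosome, caspase and inhibitor genes rose and 7 fell under Thr starvation, and 6 rose and 3 fell under Cys starvation, at medians of 0.08 and 0.05 on the log2 scale. The shares called were 78.9% and 47.4%, against 63% and 36.3% of all genes. The Cys counts were 5 and 4 with the deposited size factors and 4 and 4 with the GC and length trends removed. Casp2, an initiator caspase, rose by 0.71 under Thr (adjusted p = 9.86e-14) and by 0.31 under Cys starvation (adjusted p = 8.08e-07). Apaf1, the scaffold of the apoptosome, rose by 0.23 under Thr starvation (adjusted p = 4.02e-05), and under Cys starvation its log2 fold change was -0.07 (95% interval -0.16 to 0.02, adjusted p = 0.216). Casp9, the caspase that APAF1 activates, had a log2 fold change of 0.08 under Thr starvation (adjusted p = 0.283), but was called higher with the GC and length trends removed (0.26, adjusted p = 0.000918). Under Cys starvation it rose by 0.18 (adjusted p = 0.0277), and this call was lost without unstarved replicate 2, Cys-starved replicate 1 or Cys-starved replicate 3, with the deposited size factors and with those trends removed. Endog, a mitochondrial nuclease, fell by 1.04 under Thr starvation (adjusted p = 4.99e-09), and Birc6, a large inhibitor of apoptosis, rose by 0.40 (adjusted p = 0.000369). With the trends removed these values were -0.65 for Endog (adjusted p = 3.82e-06) and 0.20 for Birc6 (adjusted p = 0.00188). Aifm1, which encodes apoptosis-inducing factor, fell by 0.17 under Cys starvation (adjusted p = 7.17e-05). Htra2, a mitochondrial protease, was at -0.35 in Thr against Cys starvation (adjusted p = 1.9e-07), but at 0.02 with the GC and length trends removed (adjusted p = 0.676).

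Among 9 death receptor and adaptor genes, 5 rose and 4 fell under Thr starvation and 3 rose and 3 fell under Cys starvation, at medians of 0.23 and 0.00. The shares called were 100% and 66.7%, against 63% and 36.3% of all genes. The Thr median was 0.03 with at least 10 counts in every library and 0.13 with the GC and length trends removed. With the GC and length trends removed these counts were 3 and 3 under Thr starvation and 2 and 3 under Cys starvation. Tnfrsf10b, the mouse TRAIL receptor, had 29.3 ± 0.536 CPM in unstarved, 23.7 ± 0.21 CPM in Cys-starved and 39.9 ± 1.4 CPM in Thr-starved libraries. It rose by 0.45 under Thr (adjusted p = 1.15e-09) and fell by 0.30 under Cys starvation (adjusted p = 3.45e-06), and between the starvations the log2 fold change was 0.75 (adjusted p = 2e-13). Tnfrsf21 (death receptor DR6) fell by 1.36 under Thr starvation (adjusted p = 1.06e-14) and by 0.21 under Cys starvation (adjusted p = 0.00514), and the TNF receptor gene Tnfrsf1a rose by 0.63 (adjusted p = 1.5e-09) and by 0.29 (adjusted p = 0.000365). Tradd, the adaptor of TNF receptor 1, fell by 0.86 under Thr starvation (adjusted p = 4.77e-08). Cflar, an inhibitor of caspase-8 activation, rose by 0.23 under Thr starvation (adjusted p = 0.00327), a call lost with the GC and length trends removed (0.13, adjusted p = 0.0759). Traf2, an adaptor of TNF receptors, rose by 0.53 under Thr (adjusted p = 4.05e-09) and by 0.61 under Cys starvation (adjusted p = 2.06e-09).

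Of the 17 transcription factors and regulators known to act on BCL2 family genes, 16 were in the table, and 11 rose and 4 fell under Thr starvation while 9 rose and 4 fell under Cys starvation, at medians of 0.87 and 0.12. The shares called were 93.8% and 81.2%, against 63% and 36.3% of all genes. This list was chosen with earlier results of these data known, so its shares and medians are a description only. With the GC and length trends removed 12 rose and 2 fell under Thr starvation, and with the deposited size factors 7 rose and 5 fell under Cys starvation. Trp53, which encodes p53, rose by 0.41 under Thr starvation (adjusted p = 1.2e-13) and fell by 0.10 under Cys starvation (adjusted p = 0.00109). Mdm2, its target and inhibitor, was at 98.7 ± 3.16 CPM in unstarved, 85.7 ± 0.762 CPM in Cys-starved and 262 ± 2.81 CPM in Thr-starved libraries. It rose by 1.41 under Thr (adjusted p = 1.64e-21) and fell by 0.20 under Cys starvation (adjusted p = 2.87e-06). Ddit3 (CHOP) rose by 2.46 under Thr and by 0.24 under Cys starvation, and Atf4 by 0.73 and 0.36 (adjusted p from 5.31e-22 to 0.000298 for these 4 values). Trib3, a target of CHOP, rose by 1.08 under Thr (adjusted p = 5.04e-19) and by 1.12 under Cys starvation (adjusted p = 3.05e-18). The stress factor gene Atf3 rose by 3.06 (adjusted p = 7.27e-21) and by 2.61 (adjusted p = 2.34e-18) in the same order. Jun, an AP-1 subunit, rose by 2.91 under Thr starvation (adjusted p = 9.68e-21) and by 0.92 under Cys starvation (adjusted p = 4.49e-10). Myc fell by 1.34 under Thr (adjusted p = 8.77e-19) and by 0.31 under Cys starvation (adjusted p = 1.5e-07). Foxo1, a factor known to drive Bcl2l11, fell by 0.35 under Thr starvation (adjusted p = 1.27e-06). Its relative Foxo3, likewise known to drive Bcl2l11 and named after its values were seen, rose by 1.00 under Thr (adjusted p = 3.53e-18) and by 0.33 under Cys starvation (adjusted p = 9.22e-09). Ppp1r13b, which encodes the p53 cofactor ASPP1, was at -0.68 in Thr against Cys starvation (adjusted p = 4.3e-07; -0.44 with the GC and length trends removed).

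In the list of protein turnover factors and mitochondrial partners, 2 of 12 genes rose and 5 fell under Thr starvation, and 1 rose and 7 fell under Cys starvation, at medians of 0.04 (-0.11 with the GC and length trends removed) and -0.12. The shares called were 58.3% and 66.7%, against 63% and 36.3% of all genes, and 4 rose under Thr starvation with thinned counts or with only the 2 groups compared. Dynll1, which encodes a dynein light chain that binds BIM, fell by 0.78 under Thr (adjusted p = 3.01e-17) and by 0.37 under Cys starvation (adjusted p = 1.25e-10). Its relative Dynll2, whose protein binds BMF, fell by 0.28 under Cys starvation (adjusted p = 7.36e-09). Vdac1, a channel of the outer mitochondrial membrane, fell by 0.52 under Thr starvation (adjusted p = 2.03e-15), its relative Vdac3 rose by 0.23 under Cys starvation (adjusted p = 2.75e-07; 0.13 with the GC and length trends removed), and Vdac2, a partner of BAK1, was at -0.46 in Thr against Cys starvation (adjusted p = 1.05e-12). Usp9x, which encodes a deubiquitinase of MCL1, rose by 0.37 under Thr starvation (adjusted p = 2.05e-08), but its value was 0.04 with the GC and length trends removed (adjusted p = 0.138). Mtch2, the mitochondrial receptor of cleaved BID, rose by 0.13 under Thr starvation (adjusted p = 0.000111) and was at -0.04 with those trends removed (adjusted p = 0.118).

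**Figure D5:**
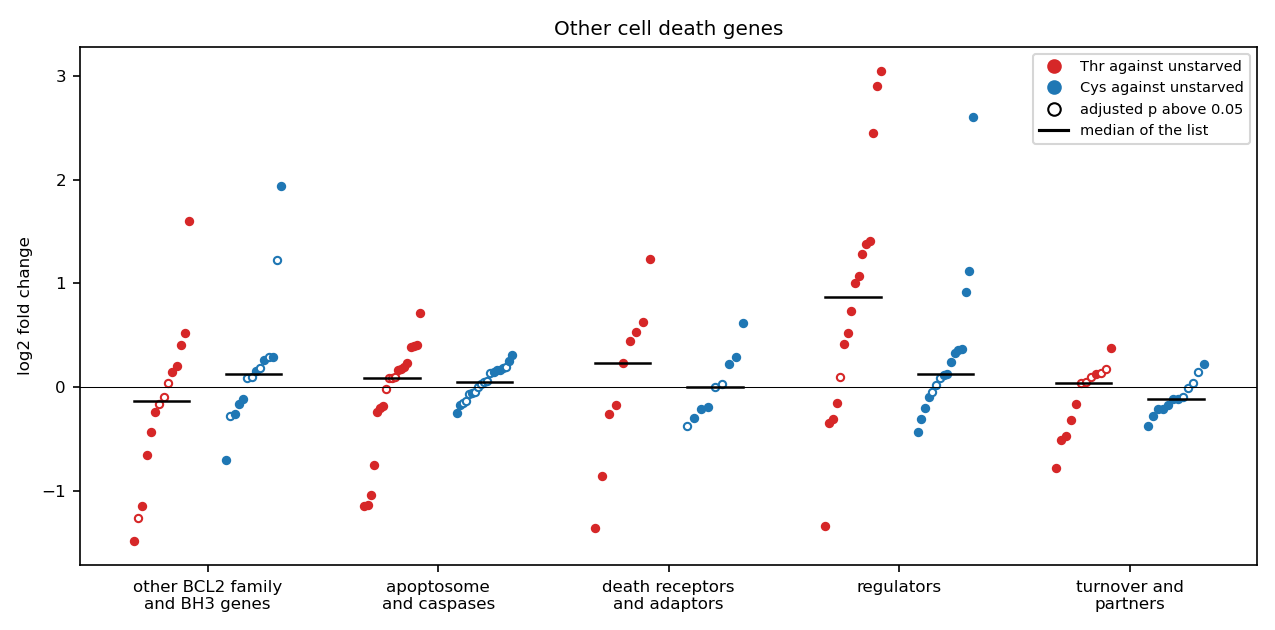
log2 fold change of each gene in the 5 lists of other cell death genes under Thr starvation (red) and Cys starvation (blue), filled where the adjusted p is 0.05 or less, with a bar at the median of each list. The regulators have the highest median under Thr starvation at 0.87, against 0.12 under Cys starvation, and in all 5 lists genes lie on both sides of 0. The lists were chosen with earlier results of these data known, so their medians are a description only.

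The genes most like each member across the 9 libraries, by Pearson's r of log2(CPM + 0.5) among 11401 genes whose mean reached 5 CPM, are given as a description, since the 9 libraries form 3 groups and r mainly follows the differences between them. Mcl1 was most like Cdkn1a (r = 0.9991), which encodes the cell cycle inhibitor p21, and next like Nup62 and Ykt6. Bbc3 was most like Ttf1 (r = 0.9988), Btg1 and Sde2, and Pmaip1 most like Gm7334 (r = 0.9988), Ddx39b and Btg3. Bcl2l11 was most like Fkbp4 (r = 0.9992), Pip5k1c and Wrb, and Bid most like Gm12355 (r = 0.9989), Ptdss2 and Tom1l1. The members that changed little had looser matches, with Psmd12 for Bak1 (r = 0.9811), Rpl23a-ps1 for Bax (r = 0.9552), Jak2 for Bcl2l1 (r = 0.9175) and Mtrr for Bad (r = 0.8891). Bcl2 was below 5 CPM and was not matched.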

How the data were processed

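RNA of 9 samples (3 per group) was sequenced as poly(A) libraries with a directional kit. The authors mapped the reads to GRCm38 with STAR 2.7.4a and used HTSeq for counting per gene. The deposited counts are not normalized. How HTSeq treated strand and overlaps is not given in the sources used here, so the count of an overlapping gene can include reads of its neighbour. The authors also deposited signal values, which are the same counts divided by a size factor per library, and these served only in an alternative. Even counts made up 67.8% of the 28226 values from 1 to 20, and whether both ends of a fragment were counted was not settled. An alternative halving the counts was added after seeing the data.

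The 10 members and the gene lists were chosen with earlier results of these data known. All members were described. From each list, the 2 largest increases and 2 largest decreases were named among called genes that reached a mean of 5 CPM with no overlap between the groups, along with Trp53, Mdm2, Ddit3, Atf4, Trib3, Bmf, Hrk, Bcl2l2, Bok, Apaf1, Casp9, Cflar and Tnfrsf10b. Some genes that this rule names are not reported here. Symbols, exons and GC content came from GENCODE on GRCm38, with a symbol for 20171 of 20189 genes.

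Counts of genes with at least 1 read over the 9 libraries were tested in R 4.3.3 with edgeR 4.0.16 (TMM, quasi-likelihood F test, group as the only term, all 9 libraries in a single fit, Benjamini-Hochberg adjustment per comparison, 0.05). The SE of a log2 fold change was its absolute value divided by the square root of the F statistic. The 95% intervals were built from this SE with the t distribution. CPM used the TMM library sizes, and CPM per kilobase the summed exon length. Scripts were tested on simulated data. Near-identical transcripts were searched with BLAST 2.17.0, which found matches only at the overlapping neighbours. Alternatives were DESeq2 1.42.0, other scalings, filters, thresholds, thinned counts, fits of 2 groups, a replicate block, loess offsets (span 0.3) for GC content and length, and each library left out. A planned search of BH3 motifs in protein sequences was not run, since no protein sequences were used here.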

Additional observations from a re-analysis of the deposited data

How the results depend on the processing

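Over 22 alternatives, 9 of which each left out a library, Bbc3, Pmaip1, Mcl1, Bcl2l11 and Bid kept their direction with Thr starvation, with log2 fold changes from 0.96 to 1.36, from 0.94 to 1.19, from 0.78 to 0.83, from -1.12 to -1.08 and from -0.53 to -0.45. Bcl2 with Cys starvation ranged from 0.76 to 0.83. A minimum of 1 for the absolute log2 fold change left 3 members called with Thr starvation (2668 of all genes), 0 with Cys starvation (296 of all genes) and 1 between the starvations (2303 of all genes), against 7, 7 and 6 by adjusted p alone. With GC and length trends removed 10 members were called between the starvations (12330 of all genes), and the reversed values were 0.32 for Bax, 0.12 for Bak1 and -0.012 for Bcl2 with Thr starvation and 0.22 for Bcl2l1 between the starvations.

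The remaining sign changes concerned members near 0 that were not called. Bcl2l1 in Thr against Cys starvation was 0.011 with DESeq2, 0.011 with RLE, 0.044 with the deposited size factors, 0.0082 with filterByExpr, 0.016 with thinned counts, 0.0034 with only the 2 groups and -0.018 to 0.026 with a library left out. Bad was -0.0078 with Cys starvation under the deposited size factors and -0.0040 in Thr against Cys starvation with at least 10 counts in every library. With a library left out Bad ranged from -0.027 to 0.112 with Thr starvation, from -0.039 to 0.0999 with Cys starvation and from -0.018 to 0.041 between them. Thinned counts gave -0.00037 for Bcl2 with Thr and 0.023 for Pmaip1 with Cys starvation, and with a library left out these ranged from -0.101 to 0.191 and from -0.039 to 0.041. The cause of these changes was not tested. The deposited size factors changed the split of all genes called with Cys starvation from 3523 higher and 3790 lower to 2787 higher and 4786 lower, with 6 members called.

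Same-numbered libraries of different groups did not deviate together (r from -0.244 to 0.106), so no pairing by number was visible. This cannot show whether same-numbered samples were cultured or handled together. With the replicate block 7, 7 and 6 members and 12488, 7063 and 12334 of all genes were called with Thr starvation, with Cys starvation and between them. Halved counts changed no call of a member. No scaling moved the median of all genes by more than 0.1 on the log2 scale. With 51 to 116 reads per library, Bcl2 limits what can be said at this depth, and 3 libraries per group of unknown independence limit every p-value.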
